A study of Mus musculus with 11 samples.

Results

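The constant genes of the T cell receptor and the genes of the CD3 complex were followed through all 11 libraries. The 10 genes were chosen by name, as the constant genes of the receptor chains and the chains of the complex, with earlier results of these data known, and make up 10 of the 55536 Ensembl genes in the files. They comprise the alpha and beta constant genes Trac, Trbc1 and Trbc2, the delta and gamma constant genes Trdc, Tcrg-C1 and Tcrg-C2, and Cd3d, Cd3e, Cd3g and Cd247, which encode the CD3 delta, epsilon, gamma and zeta chains.

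The RNA came from epidermal cells of the dorsal skin of male CD4Cre R26-tdT mice on a C57Bl6/N background. In these mice all cells with a history of Cre activity from a Cd4 promoter transgene carry the red fluorescent protein tdTomato (tdT), so every group shared both alleles and was set apart by the sort. Cells positive for CD49f and CD34 were divided by tdT and by Sca-1. The 4 groups are called tdT+ Sca-1neg (3 libraries), tdTneg Sca-1neg (3), tdT+ Sca-1+ (3) and tdTneg Sca-1+ (2) here. Each library held cells of 2 pooled mice, of 29 weeks for replicate 1 and of 32 weeks for replicates 2 and 3, and no treatment was given. The tdTneg Sca-1+ group has no replicate 3, so its mix of ages differs from that of the other groups. The sort was not stated to include an antibody against leukocytes. The gene counts of a library summed to between 17409131 and 46542177.

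A T cell carries either an alpha-beta or a gamma-delta receptor. The receptor chains bind the antigen, and the CD3 chains, which both receptor types share, carry the signal into the cell through their tyrosine motifs. The delta genes lie inside the alpha locus and are removed when a cell joins an alpha variable segment on that chromosome. Mouse epidermis is known for resident gamma-delta T cells, the dendritic epidermal T cells, whose receptor uses 1 invariant pair of variable segments, and alpha-beta memory T cells can also settle there. The Cd4 promoter is active in the thymus at the stage at which alpha-beta T cells carry both CD4 and CD8, so the reporter marks cells by history and not by present Cd4 expression.

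The genes lie on 5 chromosomes of GRCm38 in the Ensembl release 96 annotation. Trdc (chr14:54142851-54148868) and Trac (chr14:54220521-54224206) share the alpha-delta locus. Trbc1 (chr6:41538218-41539881) and Trbc2 (chr6:41546730-41548352) follow each other in the beta locus, and Tcrg-C1 (chr13:19214103-19217024) and Tcrg-C2 (chr13:19304649-19307551) lie in the gamma locus on opposite strands. Cd3g (chr9:44969572-44980431), Cd3d (chr9:44981786-44987339) and Cd3e (chr9:44998740-45009627) form a cluster, whereas Cd247 lies apart (chr1:165788681-165877277). The features counted were the exons of each gene.

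The beta and the gamma constant genes are near copies of each other, which limits how their reads can be divided. The first exons of Trbc1 and Trbc2 are 375 bases long and differ at 1 base (99.73% identity), and 259 bases in a row are the same. The first exons of Tcrg-C1 and Tcrg-C2 are 330 bases long and differ at 9 bases (97.27% identity). The stretches around the Trbc difference and the first 150 bases of the Tcrg-C exons show how little a read has to tell the copies apart. Capitals mark the bases that differ, and each sequence was read 5′ to 3′ from GRCm38 on the strand of its gene.
Trbc1 (chr6:41538418-41538537, + strand): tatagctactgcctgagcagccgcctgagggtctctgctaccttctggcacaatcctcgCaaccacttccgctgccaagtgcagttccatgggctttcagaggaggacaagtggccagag
Trbc2 (chr6:41546930-41547049, + strand): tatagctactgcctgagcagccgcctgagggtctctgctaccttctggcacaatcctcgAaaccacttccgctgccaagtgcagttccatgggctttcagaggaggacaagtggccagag
Tcrg-C1 (chr13:19214103-19214252, + strand): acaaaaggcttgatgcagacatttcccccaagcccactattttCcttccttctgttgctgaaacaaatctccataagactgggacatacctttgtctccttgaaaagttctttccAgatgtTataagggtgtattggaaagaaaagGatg
Tcrg-C2 (chr13:19307402-19307551, - strand): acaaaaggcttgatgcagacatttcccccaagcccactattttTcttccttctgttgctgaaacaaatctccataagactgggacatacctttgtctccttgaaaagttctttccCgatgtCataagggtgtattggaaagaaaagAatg

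Over whole exons, 40.54% of the 50-base stretches of Trbc1 and 44.01% of those of Trbc2 also occur in the other gene. For Tcrg-C1 and Tcrg-C2 the shares were 34.17% and 25.43%, with each other or with Tcrg-C3, and for Trac and Cd3g the share was 0%. Of the 50-base stretches of Trdc, 5.92% also occur in other genes. How reads that fit several genes were counted is not given in the sources used here, so counts of single Trbc and Tcrg-C genes are uncertain by this sharing. The library kit does not mark strand. Of the Cd247 exons, 56.43% overlap Pou2f1 on the opposite strand, so that reads of these genes cannot be told apart there. Trdc overlaps Trdv5 over 5.36% of its exons and Gm43434 over 2.48%, and Cd3e overlaps Gm48719 over 3.31%, all on the opposite strand, and Cd247 also shares 3.87% with Gm16565 on its own strand.

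Levels are given as CPM, counts scaled to a standard library size after TMM normalization. In the sorted cells the keratinocyte genes were by far the most abundant of the marker lists, with a summed level of 19184 to 35517 CPM over 7 genes that include the sort markers Cd34 and Ly6a. Cd34 stood at 468 to 1130 CPM in the 6 Sca-1neg libraries and at 320 to 383 CPM in tdTneg Sca-1+ cells, but at only 22.3 to 35.7 CPM in tdT+ Sca-1+ cells, although these were sorted as CD34+. Ly6a, which encodes Sca-1, ran from 2.46 to 59.2 CPM in Sca-1neg and from 153 to 294 CPM in Sca-1+ libraries. The files also hold 1 row outside the Ensembl genes that is not described in the sources used here. Relative to the total counts, without TMM scaling, it read 133 to 307 CPM in 5 of the 6 tdT+ libraries and 2.54 to 4.89 CPM in the 5 tdTneg libraries, but 2.05 CPM in the library labelled tdT+ Sca-1neg replicate 2. That library goes against its label in this row, so numbers of genes called by the main edgeR test that rest on it are given with and without it. Numbers from DESeq2, from other settings or at an unadjusted p include it, as do intervals, list medians and correlations across libraries.

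The T cell genes were present at low levels in Sca-1neg cells and were highest in tdT+ Sca-1+ cells, where all 10 members lay above the Sca-1neg libraries of both kinds. Trdc, the delta constant gene, was counted 100, 171 and 242 times in the tdT+ Sca-1neg libraries and 75, 6 and 44 times in the tdTneg Sca-1neg libraries. It was counted 2022, 1636 and 1741 times in tdT+ Sca-1+ and 629 and 432 times in tdTneg Sca-1+ libraries. Trac, the alpha constant gene, was counted 40, 27 and 59 times and 16, 4 and 3 times in the same Sca-1neg groups, and 583, 621 and 502 times and 51 and 32 times in the Sca-1+ groups. Thus transcripts of both receptor types were found in every library, and the lowest counts of both were in tdTneg Sca-1neg cells. In bulk RNA, fewer cells of a type and less RNA per cell cannot be told apart.

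**Figure D1:**
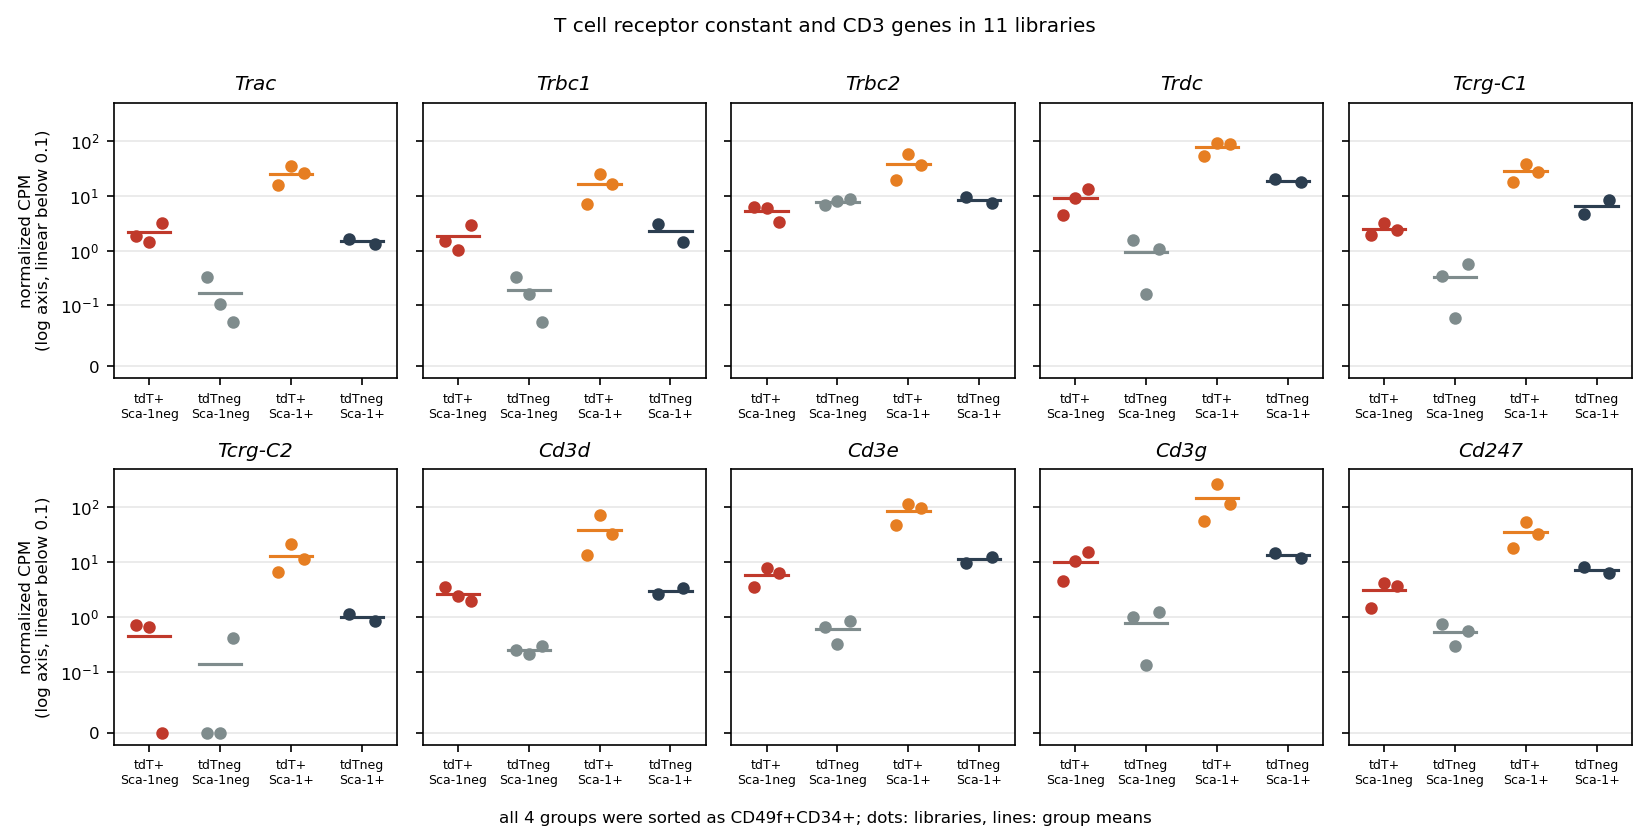
Normalized CPM (log axis, linear below 0.1) of the 10 T cell receptor constant and CD3 genes in each of the 11 libraries, grouped by tdT and Sca-1; dots are libraries and lines are group means. The tdT+ Sca-1+ libraries are highest for every gene, and the tdTneg Sca-1neg libraries lie below the tdT+ Sca-1neg libraries for all genes but Trbc2, where they lie above (6.74 to 8.68 against 3.31 to 6.34 CPM), and Tcrg-C2, where the groups overlap.

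Among the alpha-beta genes, Trac stood at 1.81, 1.45 and 3.25 CPM in tdT+ Sca-1neg and at 0.331, 0.106 and 0.0732 CPM in tdTneg Sca-1neg libraries. In tdT+ Sca-1+ libraries it stood at 15.5, 35.3 and 25.9 CPM, and in tdTneg Sca-1+ libraries at 1.61 and 1.34 CPM. Hence no tdT+ library overlapped with its tdTneg counterpart, and tdTneg Sca-1+ cells held about as much Trac as tdT+ Sca-1neg cells. Trbc1, 1 of the 2 beta constant genes, was likewise lowest in tdTneg Sca-1neg and highest in tdT+ Sca-1+ cells, with means of 1.81 ± 0.99 (SD, n = 3) CPM in tdT+ Sca-1neg (2.21 ± 1.01 without replicate 2, n = 2), 0.187 ± 0.131 (n = 3) in tdTneg Sca-1neg, 16.2 ± 8.97 (n = 3) in tdT+ Sca-1+ and 2.26 ± 1.19 (n = 2) in tdTneg Sca-1+ cells.

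Trbc2, the other beta constant gene, departed from this order. It stood at 6.34, 6.11 and 3.31 CPM in tdT+ Sca-1neg and at 6.74, 7.93 and 8.68 CPM in tdTneg Sca-1neg libraries. In tdT+ Sca-1+ cells it reached 19.5, 56.9 and 36.7 CPM, and in tdTneg Sca-1+ cells 9.46 and 7.29 CPM. In tdTneg Sca-1neg cells the gene was thus as abundant as in tdTneg Sca-1+ cells, although the other members were near their lowest values there.

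Of the gamma-delta genes, Trdc and Tcrg-C1 were well above Tcrg-C2 in tdTneg Sca-1+ cells, where Tcrg-C2 had the lowest level per kilobase of the 10 members. Trdc stood at 4.53, 9.16 and 13.3 CPM in tdT+ Sca-1neg, at 1.55, 0.159 and 1.07 CPM in tdTneg Sca-1neg, at 53.9, 92.9 and 89.9 CPM in tdT+ Sca-1+ and at 19.9 and 18.1 CPM in tdTneg Sca-1+ libraries. Tcrg-C1 stood at 1.95, 3.21 and 2.37 CPM in tdT+ Sca-1neg, at 0.351, 0.0793 and 0.561 CPM in tdTneg Sca-1neg, at 17.9, 38.8 and 26.8 CPM in tdT+ Sca-1+ and at 4.65 and 8.25 CPM in tdTneg Sca-1+ libraries. For both genes the tdTneg Sca-1+ libraries lay above all 6 Sca-1neg libraries. Tcrg-C2 was not counted in the library labelled tdT+ Sca-1neg replicate 3 nor in tdTneg Sca-1neg replicates 1 and 2, where 3 counts, taken as the limit that a count of 0 allows, equal 0.165, 0.0620 and 0.0793 CPM. Its counts reached 248, 374 and 217 in tdT+ Sca-1+ and 36 and 20 in tdTneg Sca-1+ libraries.

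The 4 CD3 genes moved with the receptor genes. Cd3e, whose product pairs with the gamma and with the delta chain, stood at 3.49, 7.87 and 6.39 CPM in tdT+ Sca-1neg, at 0.661, 0.317 and 0.829 CPM in tdTneg Sca-1neg, at 47.1, 117 and 95.5 CPM in tdT+ Sca-1+ and at 9.78 and 12.6 CPM in tdTneg Sca-1+ libraries. Cd3g had the highest mean CPM of the 10 genes in tdT+ Sca-1+ cells, 148 ± 111 (n = 3), which ranged from 56.6 to 272 CPM. The mean of Cd3d was 39.3 ± 29.6 (n = 3) CPM in tdT+ Sca-1+ and 3.03 ± 0.52 (n = 2) CPM in tdTneg Sca-1+ cells, and that of Cd247 was 35.1 ± 17.9 and 7.26 ± 1.32 CPM. The tdT+ Sca-1+ library of replicate 2 was the highest for all 4 CD3 genes and that of replicate 1 the lowest.

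On the scale of CPM per kilobase of exon, on which genes can be compared, the order of the members differed between the groups. On the annotated exon lengths Trbc2 had the highest mean in every group, with 54.5 ± 27.0 in tdT+ Sca-1+ and 11.2 ± 1.42 in tdTneg Sca-1neg cells. In tdTneg Sca-1neg cells the next gene, Tcrg-C1, had only 0.358 ± 0.261 CPM per kilobase, and no 2 neighbours from there on differed beyond their ranges. In tdT+ Sca-1+ cells no neighbours in the order differed beyond their ranges, from Trbc2 and Cd3g at the top (45.4 ± 33.9) to Cd247 (6.59 ± 3.36). In tdTneg Sca-1+ cells Tcrg-C1 (6.98 ± 2.75) and Trdc (4.92 ± 0.33) followed Trbc2 (12.1 ± 2.22), and Trac came eighth (1.58 ± 0.21). The place of Trdc rests on its annotated length of 3865 bases. With only this length ended as in RefSeq, at 1105 bases, and the counts unchanged, its values are upper limits. Trdc then stood at 17.2 ± 1.16 CPM per kilobase in tdTneg Sca-1+, 71.4 ± 19.6 in tdT+ Sca-1+ and 8.15 ± 3.99 in tdT+ Sca-1neg cells. These means lay above those of Trbc2 on its annotated length, whereas 0.839 ± 0.640 in tdTneg Sca-1neg cells lay below. Only in tdTneg Sca-1+ and tdTneg Sca-1neg cells did the libraries of these genes then not overlap. Divided by its length without 50-base stretches shared with other genes, Trbc2 had means of 21.6 in tdTneg Sca-1+, 97.4 in tdT+ Sca-1+ and 13.6 in tdT+ Sca-1neg cells, above these Trdc means.

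The comparison of tdT+ with tdTneg cells within each population asked which genes go with a history of Cd4 promoter activity. A gene was called when edgeR's quasi-likelihood test over 20307 genes, among them all 10 members, gave an adjusted p under 0.05 together with a log2 fold change above 1 in size. In Sca-1+ cells 4 of the 10 members were called higher in tdT+ cells, against 0.251% of all genes tested. Trac had a log2 fold change of 4.11 (SE 0.71, adjusted p = 0.0154), Cd3d of 3.70 (SE 0.66, adjusted p = 0.0176), Cd3e of 2.95 (SE 0.52, adjusted p = 0.0174) and Trbc2 of 2.17 (SE 0.46, adjusted p = 0.0395). Of the remaining 6, Trdc had a log2 fold change of 2.05 (SE 0.71, adjusted p = 0.200), Tcrg-C1 of 2.11 (SE 0.65, adjusted p = 0.150), Trbc1 of 2.83, Cd247 of 2.27, Cd3g of 3.48 and Tcrg-C2 of 3.71. None of the 3 gamma-delta genes and 2 of the 3 alpha-beta genes were called in edgeR, but DESeq2 called 9 of the 10 members (1.20% of all genes), among them Trdc (adjusted p = 0.0145) and Tcrg-C1 (adjusted p = 0.00202), and edgeR with only the groups compared called all 10 (0.696%). Whether the effect differs between Trac and Trdc was not tested. For all 10 members the tdT+ Sca-1+ libraries lay above the tdTneg Sca-1+ libraries, as they did for 15.8% of all genes. The median log2 fold change was 2.89 over the members and 0.04 over all genes tested.

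These calls depended on single libraries. With the replicate number as a block, 3 members were called (0.167% of all genes) and Trbc2 was not (adjusted p = 0.0789). Without tdT+ Sca-1+ replicate 2 or 3 the number called was 2 (0.0785% and 0.0636% of all genes called higher). Without tdTneg Sca-1neg replicate 2 it was 7 (0.355%). The share of all genes thus moved with the members. Without either tdTneg Sca-1+ library, which leaves 1 library in that group, all 10 members kept a positive log2 fold change.

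In Sca-1neg cells 0 of the 10 members were called in edgeR, against 0.00985% of all genes called higher. At an unadjusted p under 0.05, 8 members were higher in tdT+ cells, against 8.42% of all genes in either direction. DESeq2 called 8 members higher, against 1.82% of the genes to which it gave an adjusted p. In edgeR the log2 fold changes of these 8 ran from 2.53 (Cd247, SE 0.54, adjusted p = 0.199) to 3.67 (Cd3g, SE 0.79, adjusted p = 0.202). Cd3e had the lowest adjusted p in edgeR, 0.0604, at a log2 fold change of 3.28 (SE 0.47), and Trac had 3.62 (SE 0.61, adjusted p = 0.113). The same 8 genes had tdT+ libraries that lay above all tdTneg libraries, against 5.07% of all genes. Without the library labelled tdT+ Sca-1neg replicate 2 the number was 8 again, against 8.85% of all genes. Trbc2 had a log2 fold change of -0.57 (SE 0.38, adjusted p = 0.729) and its libraries did not overlap in the other direction. Without the library labelled tdT+ Sca-1neg replicate 2 the number called was again 0 (0% of all genes), and the log2 fold changes were 3.84 for Trac, 3.25 for Trdc and 3.02 for Cd3e. The median over the members was 3.24, against -0.03 over all genes tested. Without tdT+ Sca-1+ replicate 1, 1 member was called (0.0349% of all genes).

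Averaged over both populations, the effect of tdT was called for 8 of the 10 members, against 0.458% of all genes called higher. The largest was that of Trac, with a log2 fold change of 3.86 (SE 0.47, adjusted p = 0.00432). Cd3g (3.57, SE 0.61, adjusted p = 0.0168), Cd3d (3.53, SE 0.44, adjusted p = 0.00445), Cd3e (3.12, SE 0.36, adjusted p = 0.00368) and Trbc1 (3.03, SE 0.54, adjusted p = 0.0220) followed. Both a delta and a gamma gene were among the called genes, Trdc with 2.66 (SE 0.49, adjusted p = 0.0252) and Tcrg-C1 with 2.51 (SE 0.45, adjusted p = 0.0224), and so was Cd247 with 2.40. Trbc2 (0.80, SE 0.29, adjusted p = 0.260) and Tcrg-C2 (2.71, SE 1.11, adjusted p = 0.331) were not called. With the replicate block 6 members were called, again against 0.458% of all genes, and Trbc1 (adjusted p = 0.0544) and Trdc (adjusted p = 0.0501) were not. The number stayed at 8 without the library labelled tdT+ Sca-1neg replicate 2 (0.383% of all genes), with log2 fold changes of 3.97 for Trac, 2.98 for Cd3e and 2.65 for Trdc. It was 5 without tdT+ Sca-1+ replicate 3, where the share of all genes was also lower (0.235%). Without either tdTneg Sca-1+ library, which leaves 1 library in that group, all 10 members kept a positive log2 fold change.

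**Figure D2:**
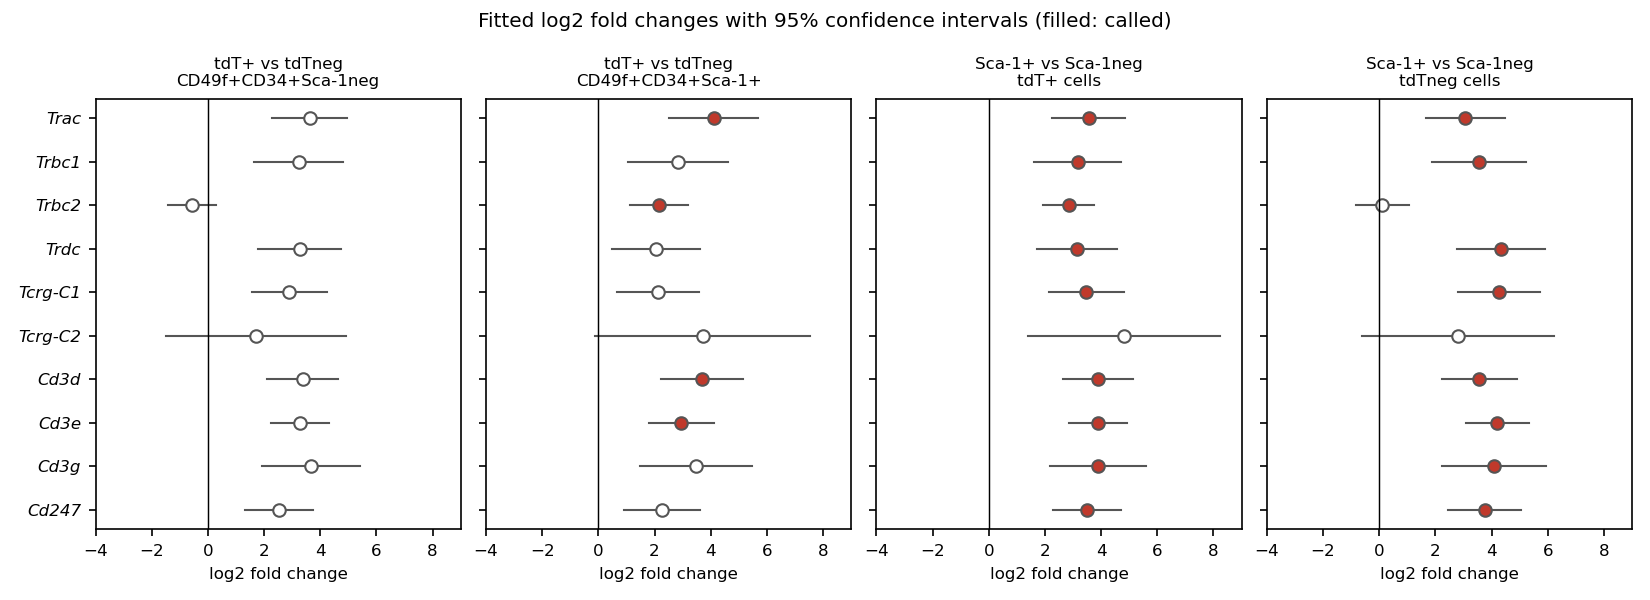
Fitted log2 fold changes (x axis) of the 10 genes in 4 comparisons, with 95% confidence intervals as bars; filled points are called genes (adjusted p under 0.05, log2 fold change above 1 in size). Trbc2 is the one gene near 0 or below in Sca-1neg cells by tdT (-0.57) and in tdTneg cells by Sca-1 (0.11), and Tcrg-C2 has the widest intervals.

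The effect of tdT was not shown to differ between the populations for any member. The difference, Sca-1+ minus Sca-1neg, was called for 0 of the 10 members in edgeR, against 0.00985% of all genes called higher, and 1 member had an unadjusted p under 0.05, against 12.4% of all genes. That gene was Trbc2, with a difference of 2.74 in log2 fold change (SE 0.59, adjusted p = 0.0881, 0.157 with the replicate block), and DESeq2 called it (0.382% of all genes). For Trdc the difference was -1.21 (95% confidence interval -3.19 to 0.77), and for Trac it was 0.49 (-1.47 to 2.45). Without the library labelled tdT+ Sca-1neg replicate 2 the difference for Trbc2 was 2.86 (adjusted p = 0.143), for Trdc -1.19 and for Trac 0.27.

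The comparison of Sca-1+ with Sca-1neg cells asked how the populations differ. In tdT+ cells 9 of the 10 members were called higher in Sca-1+ cells, against 2.91% of all genes, with log2 fold changes from 2.84 (Trbc2, SE 0.41) to 3.90 (Cd3d, SE 0.56). The alpha and the delta constant gene differed by similar amounts, Trac by 3.56 (SE 0.58, adjusted p = 0.00407) and Trdc by 3.13 (SE 0.64, adjusted p = 0.0121). Tcrg-C2 had the highest log2 fold change, 4.81, but also the largest error (SE 1.54, adjusted p = 0.0682). All 10 members had Sca-1+ libraries above the Sca-1neg libraries, against 15.4% of all genes (19.5% without the library labelled tdT+ Sca-1neg replicate 2). The median was 3.53 over the members and -0.07 over all genes tested. Without the library labelled tdT+ Sca-1neg replicate 2, 8 members were called (3.29% of all genes) and Trbc1 was not (2.87, adjusted p = 0.0519).

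In tdTneg cells 8 of the 10 members were called higher in Sca-1+ cells, against 3.29% of all genes. Trdc (4.34, SE 0.71, adjusted p = 0.0110) and Tcrg-C1 (4.26, SE 0.65, adjusted p = 0.00932) had the largest log2 fold changes of the 8, and Trac (3.07, SE 0.63, adjusted p = 0.0231) the smallest. Cd3e had a log2 fold change of 4.20 (SE 0.50, adjusted p = 0.00471). Trbc2 had 0.11 (95% confidence interval -0.84 to 1.05, adjusted p = 0.922), and its libraries overlapped. For the other 9 members the Sca-1+ libraries lay above the Sca-1neg libraries, against 19.9% of all genes. The replicate block left 7 members called (2.94% of all genes), without Trbc1 (adjusted p = 0.0522). The number called was 3 without tdTneg Sca-1neg replicate 3, where the share of all genes was also lower (0.800%). Without tdTneg Sca-1+ replicate 1, which leaves 1 library in that group, 9 of the 10 members kept a positive log2 fold change.

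The balance of delta and alpha constant RNA within each library was compared next. The gamma-delta share is Trdc as a percentage of Trdc and Trac together, both as counts per kilobase of exon. It was 45.6%, 38.9% and 45.6% in the tdT+ Sca-1+ libraries, with 95% Wilson intervals from 36.8% to 48.1% that cover counting error only. In tdTneg Sca-1+ libraries it was 74.9% and 76.6%, with intervals from 69.2% to 82.4%. The libraries of the 2 groups did not overlap, and neither did their intervals. In counts, tdT+ Sca-1+ cells held 0.288, 0.380 and 0.288 reads of Trac per read of Trdc, and tdTneg Sca-1+ cells 0.0811 and 0.0741. With 3 against 2 libraries, and as a score over the members, the difference was given no p.

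In Sca-1neg cells the share of Trdc against Trac overlapped between the tdT groups. It was 37.7%, 60.5% and 49.8% in tdT+ libraries and 53.1%, 26.6% and 78.0% in tdTneg libraries, where it rested on 16, 4 and 3 reads of Trac and 75, 6 and 44 of Trdc. The interval of the second of these libraries ran from 9.91% to 54.5%.

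The size of the share depended on the annotated length of Trdc and on the genes used. Trdc has 3865 bases of exon in the annotation, 3403 of them in its last exon block. When only the length was ended where RefSeq ends the gene, which leaves 1105 bases, the share was 69.0% to 74.6% in tdT+ Sca-1+ and 91.3% to 92.0% in tdTneg Sca-1+ cells. Reads beyond that end stayed in the counts, so these shares are upper limits. Thus neither more alpha nor more delta RNA can be stated for tdT+ Sca-1+ cells. Changing only the length scales Trdc equally in every library, so that the order of the libraries was fixed beforehand. Whether a recount of reads up to the RefSeq end would keep this order was not tested. With Tcrg-C1 against Trbc1, however, the groups overlapped, at 55.6% to 66.9% in tdT+ Sca-1+ and 54.9% and 82.4% in tdTneg Sca-1+ libraries. With both Tcrg-C genes against both Trbc genes the shares were 35.5% to 41.3% and 26.1% and 44.2%, and also overlapped. In Sca-1neg cells the reverse was seen. There both Tcrg-C against both Trbc genes gave 20.6% to 29.1% in tdT+ and 0.730% to 7.74% in tdTneg libraries, and 3 gamma-delta against 3 alpha-beta genes 23.7% to 35.8% and 1.07% to 9.52%, without overlap, in tdTneg libraries with 300 to 356 reads of Trbc2. With Tcrg-C1 against Trbc1 the Sca-1neg groups overlapped (39.7% to 71.9% and 28.8% to 86.1%). The separation of tdT+ from tdTneg Sca-1+ cells was therefore seen with the alpha and delta genes and not with the beta and gamma genes.

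**Figure D3:**
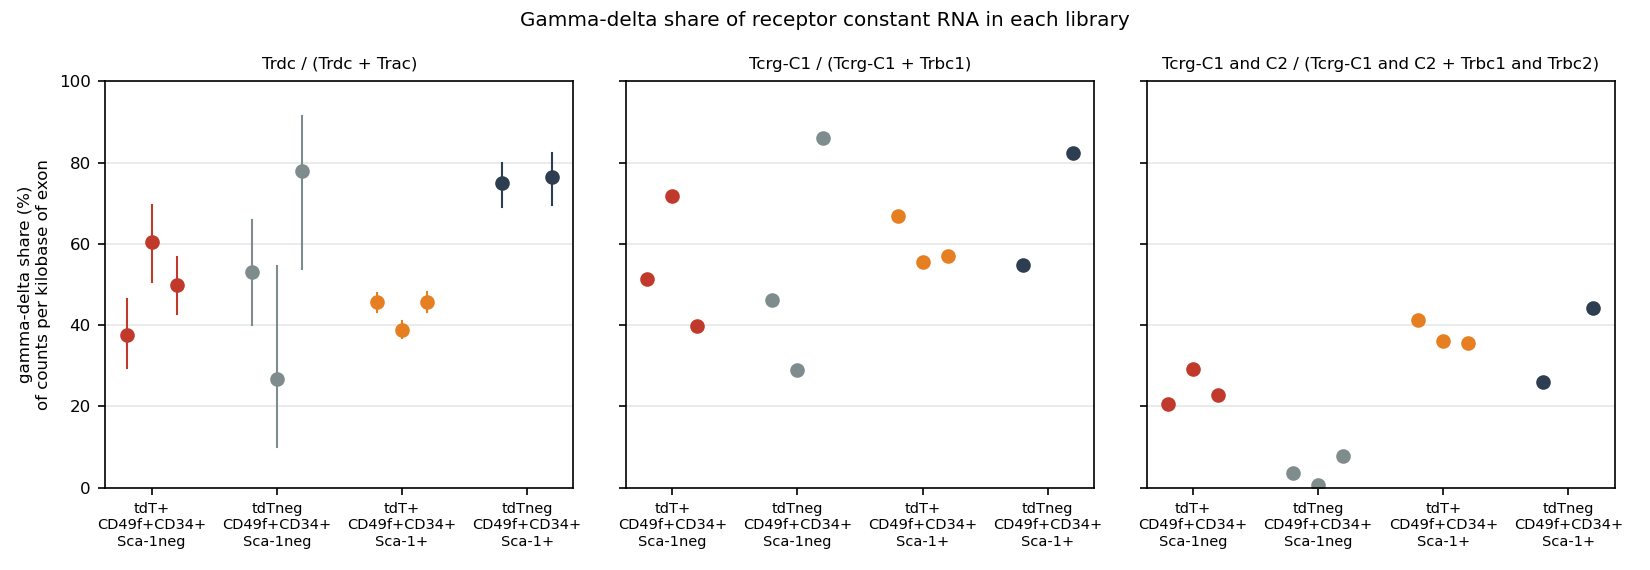
Gamma-delta share of receptor constant RNA (y axis, percent of counts per kilobase of exon) in each library of the 4 groups, from 3 sets of genes; bars on the Trdc and Trac panel are 95% Wilson intervals. The tdTneg Sca-1+ libraries (74.9% and 76.6%) lie above the tdT+ Sca-1+ libraries (38.9% to 45.6%) in that panel, while these groups overlap in the other panels. The Sca-1neg groups overlap in that panel and in the panel of Tcrg-C1 and Trbc1. They do not overlap with both Tcrg-C and both Trbc genes, where tdTneg libraries are at 0.730% to 7.74% and tdT+ libraries at 20.6% to 29.1%.

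The pair of beta constant genes differed between groups in its ratio. Per read of Trbc1 there were 20.4, 50 and 119 reads of Trbc2 in the tdTneg Sca-1neg libraries, against 2.72, 2.27 and 2.25 in tdT+ Sca-1+ and 3.05 and 5.12 in tdTneg Sca-1+ libraries. The tdT+ Sca-1neg libraries held 4.24, 6 and 1.13. The ratios of tdTneg Sca-1neg cells rested on 16, 6 and 3 reads of Trbc1 and on 326, 300 and 356 reads of Trbc2. Joining segments were then counted, a choice made after these values were seen. The 7 Trbj2 segments, which lie before Trbc2, had 31, 38 and 36 reads in tdTneg Sca-1neg libraries, and the 7 Trbj1 segments, which lie before Trbc1, had 8, 1 and 2. In tdT+ Sca-1+ libraries the Trbj2 segments had 135, 132 and 100 reads and the Trbj1 segments 95, 48 and 49. In tdTneg Sca-1+ libraries the Trbj2 segments had 41 and 47 reads and the Trbj1 segments 23 and 8, and in tdT+ Sca-1neg libraries 6, 12 and 16 and 5, 6 and 10. The excess of Trbj2 reads was thus also large in tdTneg Sca-1+ replicate 2. Trbc2 was also the least like the others across libraries. Over the 11 libraries, which share the differences between the groups, its Pearson correlation in log2 CPM with the other 9 members ran from 0.60 to 0.87, against 0.79 to 0.99 among those 9.

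**Figure D4:**
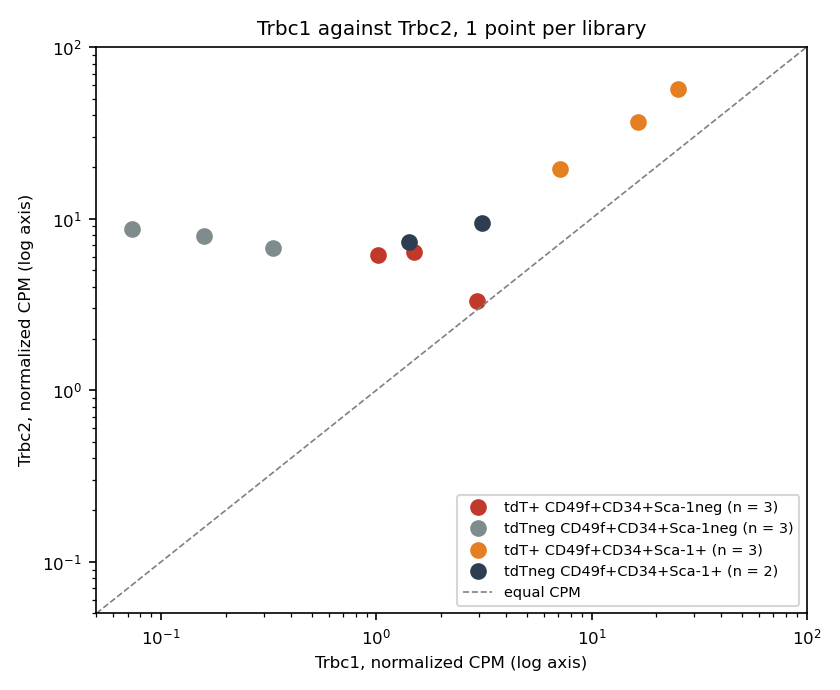
Normalized CPM of Trbc1 (x axis) and Trbc2 (y axis), both on log axes, with 1 point per library and a dashed line of equal CPM. The 3 tdTneg Sca-1neg libraries keep 6.74 to 8.68 CPM of Trbc2 at 0.0732 to 0.331 CPM of Trbc1, whereas both genes are high in tdT+ Sca-1+ libraries.

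Other genes of the receptor loci and of the T cell surface were counted from fixed lists. Tcrg-V5 and Trdv4, the variable segments of the dendritic epidermal T cell receptor, were called higher in Sca-1+ cells both in tdT+ cells (3.15, SE 0.65, adjusted p = 0.0125, and 3.03, SE 0.81, adjusted p = 0.0376) and in tdTneg cells (4.56, SE 0.73, adjusted p = 0.0104, and 3.95, SE 0.89, adjusted p = 0.0323). Trdv4 had 791, 461 and 617 reads in tdT+ Sca-1+ and 305 and 143 reads in tdTneg Sca-1+ libraries. Of the 7 genes of this list, 5 were tested, and 3 were called higher in Sca-1+ cells of either kind, against 2.91% of all genes in tdT+ and 3.29% in tdTneg cells. Without the library labelled tdT+ Sca-1neg replicate 2, 1 was called in tdT+ cells, Tcrg-V5 (adjusted p = 0.0230), and Trdv4 was not (3.54, adjusted p = 0.0531), and 2 were called in tdTneg cells, where Tcrg-C4 was not (adjusted p = 0.0524). Tcrg-C4, a further gamma constant gene, was the third in tdTneg cells (4.58, SE 1.11, adjusted p = 0.0411). Tcrg-V4, another gamma variable segment, was the third in tdT+ cells, with 4 to 33 reads in tdT+ Sca-1+ and 0 in all Sca-1neg libraries. Only Sca-1+ libraries could bring it past the filter, so its call is no independent result.

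The CD8 genes did not overlap between the Sca-1+ groups, whereas Cd4 did. Cd8a, the alpha chain of CD8, had 1037, 1513 and 1425 reads in tdT+ Sca-1+ and 69 and 0 reads in tdTneg Sca-1+ libraries. Cd8b1, the beta chain of CD8, which is found on conventional alpha-beta T cells, had 401, 626 and 594 against 12 and 0 reads. Within Sca-1+ cells these differences did not pass the threshold (log2 fold changes 5.80, SE 1.43, adjusted p = 0.0714, and 6.98, SE 1.73, adjusted p = 0.0729), but averaged over both populations both genes were called (4.39, adjusted p = 0.0397, and 5.16, adjusted p = 0.0415), also without the library labelled tdT+ Sca-1neg replicate 2 (adjusted p = 0.0367 and 0.0325). Cd4 had 174, 72 and 17 reads in tdT+ Sca-1+, 30 and 3 in tdTneg Sca-1+, 25, 1 and 22 in tdT+ Sca-1neg and 11, 25 and 12 in tdTneg Sca-1neg libraries. Its level was 4.64, 4.09 and 0.877 CPM in tdT+ Sca-1+ and 0.949 and 0.126 CPM in tdTneg Sca-1+ libraries, and it was called in no comparison. The list of 12 co-receptor and surface genes had 11 tested members, of which 4 were called higher in tdT+ cells on average (0.458% of all genes), 6 in Sca-1+ against Sca-1neg tdT+ cells (2.91%) and 3 in Sca-1+ against Sca-1neg tdTneg cells (3.29%). The numbers were 5, 4 and 3 without the library labelled tdT+ Sca-1neg replicate 2, and between the tdT+ populations Icos (adjusted p = 0.0759) and Cd8a (adjusted p = 0.0622) were not called. Cd7 and Cd2, an early T cell marker and an adhesion receptor, were called in each of these, with log2 fold changes of 2.67 and 3.07 by tdT. Thy1, Cd6 and Icos were called between the tdT+ populations. Icos had 26 to 77 reads in tdT+ Sca-1+ and 0 in tdT+ Sca-1neg libraries. Of these groups only the higher could bring it past the filter, so its call is no independent result.

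The signalling genes behind the receptor followed in part. Of 18 genes of this list, all tested, 5 were called higher and 1 lower in tdT+ than in tdTneg Sca-1+ cells, where 0.251% of all genes were called higher and 2.06% lower, and 0 in Sca-1neg cells in edgeR. The list median of the log2 fold changes was 2.68 and 1.62, against 0.04 and -0.03 over all genes tested. Among those called higher were Zap70 (2.79, SE 0.53), the kinase that binds the CD3 chains, the adaptors Lat (3.11, SE 0.66) and Grap2 (2.75, SE 0.53), and Sit1 (5.39, SE 1.21). Lat was named after its values were seen. Fyn, a kinase that many cell types express, was lower in tdT+ cells (-1.37, SE 0.19, adjusted p = 0.00601). Between populations 10 of the 18 were called higher in Sca-1+ tdT+ cells (2.91% of all genes), among them Lck (3.38, SE 0.64), Skap1 (4.45, SE 0.73) and Trat1 (3.62, SE 0.57), and 5 in Sca-1+ tdTneg cells (3.29%). These numbers were again 10 and 5 without the library labelled tdT+ Sca-1neg replicate 2, and by tdT in Sca-1+ cells 4 were called higher, without Sit1 (adjusted p = 0.0587). Of the recombination genes Rag1, Rag2 and Dntt, which act in lymphocyte precursors, 1 of 3 was tested and 0 were called, and their summed level was at most 3.07 CPM in any library.

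Among the genes most like the mean of the members across the 11 libraries, by Pearson correlation of log2 CPM, were Cd96 (0.993), Cd7 (0.990), Adora3 (0.990) and Trat1 (0.988), and also Klrd1, Cxcr6, Cst7, Itgae and Ly6d (0.986 to 0.981). These correlations describe libraries that fall into groups and were given no p.

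Markers of other cells changed between the same groups, and their part in the results was not tested. The summed level of 7 pan-leukocyte genes was 59.2 to 127 CPM in tdT+ Sca-1neg, 7.27 to 45.7 CPM in tdTneg Sca-1neg, 312 to 577 CPM in tdT+ Sca-1+ and 104 to 240 CPM in tdTneg Sca-1+ libraries. The order of these ranges was that of most members. Genes of Langerhans and myeloid cells summed to 657 to 1121 CPM in tdTneg Sca-1+ cells and to 357 to 599 CPM elsewhere, except for 795 CPM in the library labelled tdT+ Sca-1neg replicate 2. This list includes Epcam, an epithelial gene that Langerhans cells share, which stood at 336 to 377 CPM in tdTneg Sca-1neg and at 246 to 304 CPM in tdTneg Sca-1+ libraries. The defining marker Cd207 stood at 9.34 to 21.4 CPM in tdTneg Sca-1+ libraries, overlapping with 5.57 to 19.1 CPM in tdT+ Sca-1+, and at 0.181 to 9.05 CPM in tdT+ Sca-1neg and 0.927 to 1.49 CPM in tdTneg Sca-1neg libraries. Of the 8 genes, 4 were called higher in Sca-1+ tdTneg cells (3.29% of all genes), or 5 without the library labelled tdT+ Sca-1neg replicate 2. Genes of endothelial cells summed to 1459 to 1520 CPM in tdTneg Sca-1+ cells, against 4.96 to 83.2 CPM in 8 of the other 9 libraries and 377 CPM in the library labelled tdT+ Sca-1neg replicate 2. Genes of natural killer and innate lymphoid cells, 8 in all, summed to 377 to 582 CPM in tdT+ Sca-1+, 215 to 326 CPM in tdTneg Sca-1+ and 94.3 to 199 CPM in Sca-1neg libraries. Most of this was Gata3, at 281 to 536 CPM in tdT+ Sca-1+ and 90.7 to 193 CPM in Sca-1neg libraries, a gene that keratinocytes also express. Of the 8 genes, 3 were tested, and 2 were called higher in Sca-1+ tdT+ cells (2.91% of all genes), Gata3 and Klrd1, with 323 to 640 reads of Klrd1 in tdT+ Sca-1+ libraries, and 1 without the library labelled tdT+ Sca-1neg replicate 2. Gata3, Klrd1 and Epcam were named after their values were seen. Ncr1, the defining receptor of natural killer cells, had at most 10 reads in any library. B cell genes summed to at most 3.09 CPM and mast cell genes to at most 1.27 CPM in any library, with 2 of 5 B cell and 5 of 5 mast cell genes too low to be tested. Melanocyte and fibroblast genes summed to 5.73 to 63.1 CPM and 23.6 to 435 CPM.

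For the CD3 genes, which moved together, the RefSeq promoter of each is shown from 250 bases before to 50 bases after its start (GRCm38.p6). Sequences were found for 4 of the 10 members, and each is printed 5′ to 3′ on the strand of its gene. Capitals mark the ETS core AGGAAG or its reverse complement CTTCCT, which factors of the ETS family can bind.
Cd3d (chr9:44981536-44981835, + strand): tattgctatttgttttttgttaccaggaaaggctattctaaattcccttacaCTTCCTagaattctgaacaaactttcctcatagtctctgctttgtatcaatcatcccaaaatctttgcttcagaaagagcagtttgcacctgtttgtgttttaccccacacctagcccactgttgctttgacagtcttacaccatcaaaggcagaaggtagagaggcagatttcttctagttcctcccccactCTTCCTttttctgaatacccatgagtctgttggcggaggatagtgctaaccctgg
Cd3e (chr9:45009562-45009861, - strand): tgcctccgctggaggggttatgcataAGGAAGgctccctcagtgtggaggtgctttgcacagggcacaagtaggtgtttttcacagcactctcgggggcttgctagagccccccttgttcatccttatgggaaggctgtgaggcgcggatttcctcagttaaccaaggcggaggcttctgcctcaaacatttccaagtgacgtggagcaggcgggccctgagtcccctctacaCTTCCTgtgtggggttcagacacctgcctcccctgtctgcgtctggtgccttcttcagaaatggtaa
Cd3g (chr9:44980382-44980681, - strand): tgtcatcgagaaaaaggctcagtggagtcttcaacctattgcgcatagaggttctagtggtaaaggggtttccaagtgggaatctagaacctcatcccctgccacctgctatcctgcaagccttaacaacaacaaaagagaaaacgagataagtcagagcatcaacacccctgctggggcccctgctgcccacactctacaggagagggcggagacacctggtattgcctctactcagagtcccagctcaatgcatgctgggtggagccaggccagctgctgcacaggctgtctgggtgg
Cd247 (chr1:165788431-165788730, + strand): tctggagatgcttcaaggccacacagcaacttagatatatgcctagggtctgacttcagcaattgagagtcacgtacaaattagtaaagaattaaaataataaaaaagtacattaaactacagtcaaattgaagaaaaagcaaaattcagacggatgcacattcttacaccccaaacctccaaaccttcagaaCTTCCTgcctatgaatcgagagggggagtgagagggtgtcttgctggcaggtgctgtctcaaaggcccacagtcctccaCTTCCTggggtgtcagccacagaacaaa

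The ETS core occurred at 2 sites each in the Cd3d, Cd3e and Cd247 windows and was not found in that of Cd3g, and 35.35% of 32851 promoters of the same length hold it. The RUNX motif TGTGGT was found in none of the 4 windows (16.76% of all promoters) and the GATA motif AGATAA in that of Cd3g (11.18%), each read on both strands. The E-box CANNTG occurred in all 4 windows and in 72.31% of all promoters. These matches describe letters only, and no binding was measured.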

How the data were processed

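Sorted epidermal cells were measured by RNA sequencing in 11 libraries. According to the methods, the authors aligned reads to mm10 with STAR and counted them per gene of Ensembl release 96 with featureCounts, after bcl2fastq 2.20.0.422 and FastQC, and analysed them with DESeq2 1.18.1. The deposited values are raw counts without normalization, and the strand setting and the treatment of reads that fit several genes are not given in the sources used here. Groups and replicate numbers were taken from the labels. The 1 row with no Ensembl identifier entered neither totals nor tests.

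Counts of all 11 libraries were fitted in R 4.3.3 with edgeR 4.0.16 (TMM, filterByExpr, glmQLFit and glmQLFTest, 1 mean per group, 20307 genes), and p-values were adjusted by Benjamini-Hochberg over all genes tested. DESeq2 1.42.0 was run as an alternative. Levels are TMM-normalized CPM, and correlations used log2 CPM with a prior count of 2. Depth per library, from 17409131 to 46542177 counts, sets a limit of 3 counts (0.0620 to 0.170 CPM) for a gene not counted, and Wilson intervals cover counting error only. Exon lengths, coordinates and sequences came from the GRCm38 annotation with Python 3.11.15, numpy 2.4.6, pandas 2.3.3, scipy 1.17.1 and matplotlib 3.10.9. The fit was also run on simulated counts, whose outcome is not reported here.

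The members and lists were chosen with earlier results of these data known. Named genes were all 10 members, up to 8 genes of each list called in any comparison by lowest adjusted p, the defining marker of other cell types, and the 10 genes most like the members. A gene that this rule names is not reported here. Alternatives were DESeq2, RLE size factors, other filters, no fold threshold, the replicate block, only the groups compared, omission of each library, other prior counts and other measures of the gamma-delta share. Same-numbered libraries were taken to come from 1 pool of mice sorted into the groups, since the methods count 3 biological replicates in all and each number has 1 age in the labels. Deviations from group means correlated with a median of 0.08 (-0.42 to 0.59) in 15 same-numbered pairs and of -0.02 (-0.60 to 0.51) in 30 other pairs. No label states that libraries of a group came from separate mice, so p-values measure the spread between these libraries.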

Additional observations from a re-analysis of the deposited data

Results flagged for a closer look

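A signal stood out in a row that the comparisons do not use. The row outside the Ensembl genes, not described in the sources used here, was above the highest tdTneg library (4.89 CPM) in 5 of 6 tdT+ libraries, at 133 to 307 CPM of the total counts without TMM scaling. The sixth, the library labelled tdT+ Sca-1neg replicate 2, had 37 reads, or 2.05 CPM (95% Wilson interval 1.49 to 2.83), below the tdTneg libraries, whose lowest was 2.54 CPM. In that library Trac, Trdc and Cd3e stood at 1.45, 9.16 and 7.87 CPM, above all 3 tdTneg Sca-1neg libraries. It also stood apart from both Sca-1neg groups in markers of other cells, with 175 CPM of the endothelial gene Pecam1, against 1.05 to 19.6 CPM in the other 5 Sca-1neg libraries, and 168 CPM of the myeloid gene Lyz2, against 0.366 to 35.2 CPM. In Cd8a (0.696 CPM, against 1.45 and 4.46) and Cd4 (0.0536 CPM, against 1.13 and 1.21) it lay below the other tdT+ Sca-1neg libraries.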

How the results depend on the processing

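With RLE size factors or without a fold threshold the number of members called was the same in all 6 comparisons, and with the replicate block it was 0, 3, 6, 0, 9 and 7 for tdT in Sca-1neg cells, tdT in Sca-1+ cells, tdT on average, the difference between the populations, Sca-1 in tdT+ cells and Sca-1 in tdTneg cells, against 0, 4, 8, 0, 9 and 8. The block changed no other call than those given above. In the order above, DESeq2 called 8, 9, 8, 1, 10 and 8 members, against 1.82%, 1.20%, 1.74%, 0.382%, 4.26% and 7.86% of all genes called higher. Keeping every gene with a read somewhere gave 8, 7, 8, 1, 10 and 8, against 0.366%, 0.184%, 0.409%, 0.0387%, 1.47% and 2.45%. At least 10 counts in every library left 3 members to test and called 1, 3, 2, 0, 3 and 2, against 0.150%, 0.451%, 0.776%, 0.0712%, 4.28% and 6.30% of all genes. With only the groups compared, 0, 10, 10 and 7 members were called for tdT in Sca-1neg cells, tdT in Sca-1+ cells, Sca-1 in tdT+ cells and Sca-1 in tdTneg cells. The shares of all genes called higher were 0%, 0.696%, 3.07% and 5.27%. Without 1 library the numbers ran from 0 to 1, 2 to 7, 5 to 8, 0 to 0, 8 to 10 and 3 to 8, among fits that leave more than 1 library in each group. The shares of all genes called higher there ran from 0% to 0.0349%, 0.0636% to 0.355%, 0.235% to 0.674%, 0% to 0.0836%, 1.79% to 3.37% and 0.800% to 4.57%. Fits without a tdTneg Sca-1+ library rest on 1 library there, assumed to vary like the others, and their calls are left out of these ranges.

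Without 1 library the sign changed for 6 differences between the populations, none called: Trac (-0.43 to 0.90), Trbc1 (-1.08 to 0.29), Tcrg-C2 (-2.97 to 2.59), Cd3d (-0.50 to 0.74), Cd3g (-1.05 to 0.29) and Cd247 (-0.80 to 0.0518). It also changed for Trbc2 by Sca-1 in tdTneg cells (-0.11 to 0.33).

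The mean log2 CPM of Cd3d in tdTneg Sca-1neg cells was -1.91 with a prior count of 0.5, and the other member levels moved by less than 1 SD with it and without normalization factors. The median gamma-delta share in tdT+ Sca-1neg, tdTneg Sca-1neg, tdT+ Sca-1+ and tdTneg Sca-1+ libraries was 80.4%, 82.4%, 77.6% and 92.8% in raw counts. With only the length of Trdc ended as in RefSeq, which gives upper limits, it was 77.6%, 79.9%, 74.6% and 91.6%. It was 22.8%, 3.60%, 36.1% and 35.1% with both Tcrg-C against both Trbc genes, and 33.1%, 6.91%, 38.6% and 44.0% with 3 against 3 genes. With Tcrg-C1 against Trbc1 it was 57.0% and 68.7% in the Sca-1+ groups. All these medians include every library. The RefSeq end, this pair, the length without shared 50-base stretches and the calls on other gene lists without 1 library were chosen after seeing the data. The causes of these shifts were not tested, other than that fewer genes, fewer libraries or another length enter by construction. The share of Trdc against Trac in tdTneg Sca-1neg cells rests on 3 to 16 reads of Trac in the libraries with the highest total counts (39364902 to 46542177), where the gene stood at 0.0732 to 0.331 CPM.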
